A study of Vanessa cardui with 14 samples.

Results

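In wings of Vanessa cardui, the painted lady butterfly, a set of 5 genes was abundant in hind wings of the larva and of the later pupa and low at 72 h after pupation. They were chosen by the FPKM values (fragments per kilobase of gene, scaled to the mapped fragments of the library) of the hind wing libraries, out of 13876 genes in the table. A member had at least 5 FPKM in all 8 larval, 5 d, ommochrome and melanin libraries. Each of these 4 stage means was at least 4 times the 72 h mean, and the 5 d, ommochrome and melanin means were 0.5 to 1.5 times the larval mean. Of the 13876 genes, 3859 met the minimum, 758 of these also kept the 3 later means within that range of the larva (called steady genes here), and 5 of the 758 were low at 72 h. The levels, ratios and ranks in the hind wing are therefore a description with no test, and the 4 forewing libraries are the samples that the choice did not use.

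RNA was measured in 14 libraries, with 2 in each of 7 groups. The groups were black regions and red regions dissected from pupal forewings, and whole hind wings of last instar larvae, of pupae 72 h after pupation, of pupae 5 d after pupation before pigment was visible, of pupae at the ommochrome stage and of pupae at the melanin stage. All animals were raised as caterpillars under the same light and temperature regime, and the labels name no treatment and no strain. The titles put the forewing regions at the melanin stage and the treatment protocol at the ommochrome stage, so both hind wing stages were set against them. How many animals gave each library is not stated, and the p-values measure the spread between these libraries, which may be technical.

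The butterfly wing grows in the larva as an imaginal disc, an epithelial sac that turns out at pupation and is then covered by scale cells. Scale cells form and extend their scales in the first part of the pupal stage. Pigment comes last, with the red and orange ommochromes before the black melanin. The identifiers come without gene names, and 0 of the 13876 were found in the RefSeq gene table, so the roles of the 5 genes are not known here. An identifier such as c23832_g1 names an assembled component of the transcriptome (c23832) and a gene within it (g1). In whole wings, fewer cells of a type and less RNA per cell cannot be told apart.

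The summed FPKM of a library ranged from 482546 to 833658, and its depth relative to larval replicate 1, read from the steps of the lowest values, from 0.46 in melanin hind wing replicate 1 to 1.87. Replicates were farthest apart at 72 h. Over the 10780 genes tested, their log2 differences had an SD of 1.19 there, against 0.429 to 0.725 in the other 6 groups. The 10 most abundant genes held 33.7% and 31.9% of the summed FPKM at 72 h, within the 27.2% to 38.4% of the 10 forewing, 5 d, ommochrome and melanin libraries, and 11.6% and 12.2% in the larva. Over all genes tested the median log2 difference of 72 h from the larva was -0.73 as deposited. This median depended on the scaling of the libraries. It was -0.476 with equal FPKM totals and -0.0796 with the most abundant genes left out. With quantile normalization it was -0.0696 and with median-of-ratios factors 0.

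The gene with the largest difference was c23832_g1. It had 141 and 101 FPKM in the larva, 7.34 and 4.41 at 72 h, 278 and 12.8 at 5 d, 123 and 122 at the ommochrome stage and 128 and 209 at the melanin stage. Its lowest other stage mean, that of the larva, was 20.6 times the 72 h mean. The libraries at 5 d were 21.8-fold apart, so this gene was abundant in one 5 d library and near its 72 h level in the other. Its rank among the 13876 genes showed the same, at 237 and 2639 in the 5 d libraries, 690 and 908 in the larva and 4635 and 5919 at 72 h. The ommochrome libraries, by contrast, differed by 1.01-fold. Without 5 d replicate 1 the ratio was 2.17 and without 5 d replicate 2 the 5 d mean passed 1.5 times the larva, so the gene met the rule with the mean of these 2 libraries and with neither alone.

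Gene c23018_g1 had 328 and 571 FPKM in the larva, 29.4 and 16.9 at 72 h, 331 and 235 at 5 d, 298 and 335 at the ommochrome stage and 269 and 313 at the melanin stage. Both 72 h libraries were far below all other hind wing libraries. The lowest of these (235 FPKM at 5 d) was 7.98 times the higher 72 h value. The larval libraries were the most uneven of the other stages, and the later stage means kept to 0.63 to 0.703 times the larval mean. It ranked 175 and 295 in the larva, 1630 and 2481 at 72 h, and between 182 and 258 in the 6 later libraries. The lowest other mean was 12.2 times the 72 h mean.

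Gene c25240_g5 had 64.3 and 78.5 FPKM in the larva, 7.77 and 4.09 at 72 h, 54.3 and 62 at 5 d, 75.5 and 59.1 at the ommochrome stage and 60.1 and 108 at the melanin stage. Outside 72 h its stage means lay between 58.2 and 83.9 FPKM, and it was the single member that also met a narrower range around the larval mean, with a lower limit of 0.67 times. Its lowest other mean, at 5 d, was 9.81 times the 72 h mean.

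Gene c27472_g1 was the most abundant member. It had 847 and 901 FPKM in the larva, 102 and 36.5 at 72 h, 625 and 430.5 at 5 d, 1252 and 1233 at the ommochrome stage and 1113 and 1218 at the melanin stage. It ranked 583 and 1345 among all genes at 72 h, against 130 and 141 in the larva and 48 to 54 in the ommochrome libraries. The 72 h libraries were 2.8-fold apart, and both lay below all 8 others. The stages on either side differed too, since the 5 d mean of 528 ± 138 FPKM was 0.604 times the larval mean and the ommochrome mean of 1243 ± 13.3 (SD, n = 2) was 1.42 times it. The lowest other mean, that of 5 d, was 7.61 times the 72 h mean.

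Gene c27661_g2 was the least abundant member and the nearest to the threshold. It had 33.6 and 40.5 FPKM in the larva, 2.12 and 6.91 at 72 h, 43.1 and 30.4 at 5 d, 28.9 and 31.1 at the ommochrome stage and 21 and 21.8 at the melanin stage. Its lowest other mean, at the melanin stage, was 4.74 times the 72 h mean, and without 72 h replicate 1 this ratio was 3.1. The order of the 72 h replicates was turned round here: replicate 1 was 0.307 times replicate 2, while replicate 1 was 1.66 to 2.8 times replicate 2 in the other 4 members. Replicate 1 was the higher in 355 of the 758 steady genes (46.8%).

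**Figure D1:**
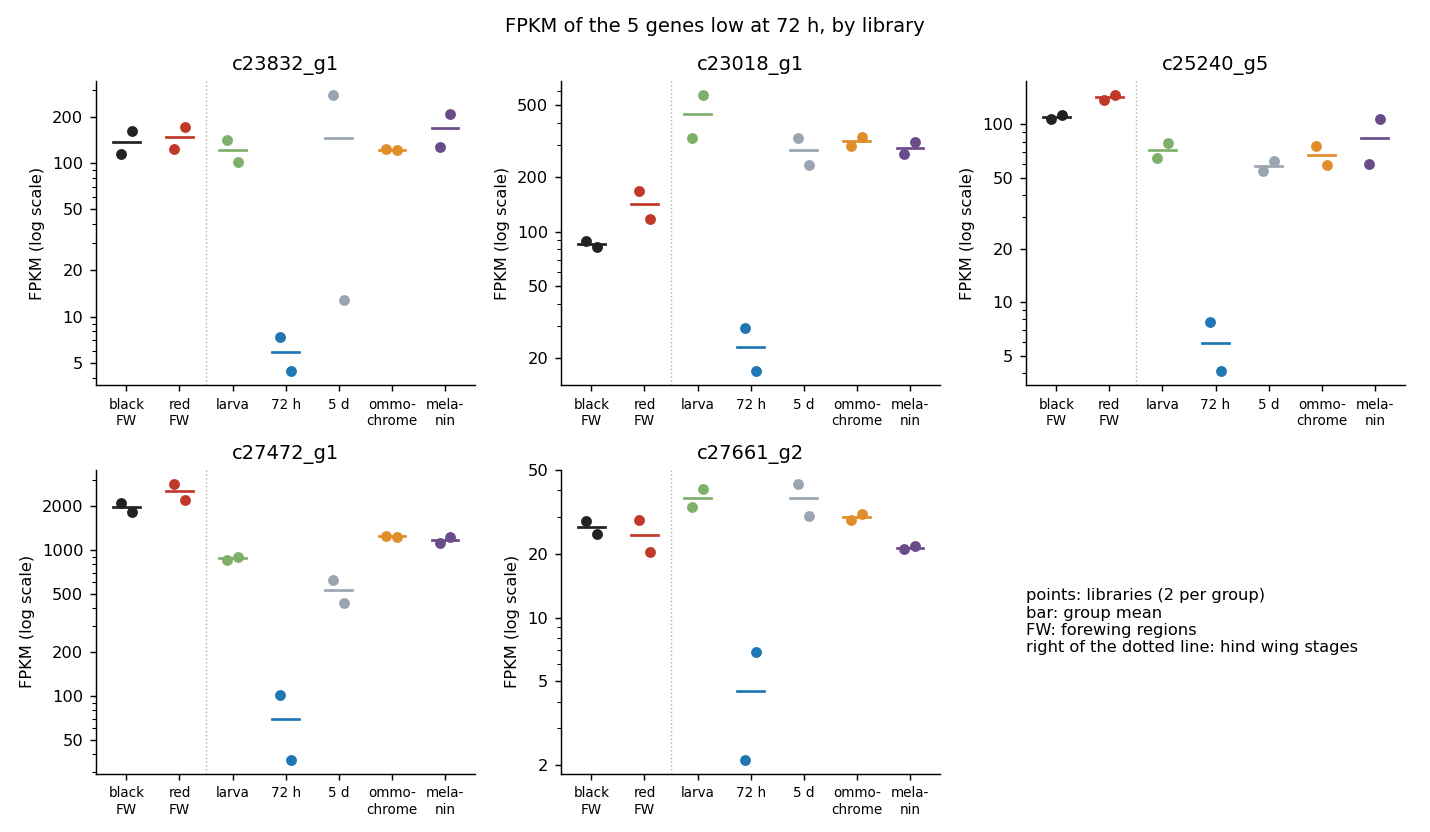
FPKM of the 5 genes on log axes, with 1 point per library, a bar at the mean of each group of 2, forewing regions left of the dotted line and hind wing stages in order right of it. In every panel both 72 h libraries lie below the other 8 hind wing libraries and the 4 forewing libraries, and c23832_g1 has 5 d libraries at 278 and 12.8 FPKM.

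A difference of this size was rare among steady genes, and the 5 members stood at the end of a continuous range. The ratio of the lowest other stage mean to the 72 h mean had a median of 0.933 over the 758 genes. It was under 1 in 443 genes, 1 to 2 in 267, 2 to 3 in 32, 3 to 4 in 11 and at least 4 in the 5 members. In the opposite direction, 7 of the 758 had a 72 h mean at least 4 times their highest other mean. The nearest genes outside the threshold were c24339_g1 and c22375_g1, both at a ratio of 3.97. Gene c24339_g1 had 47 and 81.5 FPKM at 72 h, with 5 d libraries at 386 and 124 and larval libraries at 473 and 105. Gene c22375_g1 was less abundant, at 2.36 and 2.5 FPKM at 72 h and 9.63 ± 0.0212 (SD, n = 2) at 5 d. Its replicates at 72 h were closer together than those of any member, at 1.06-fold against 1.66 to 3.26-fold.

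**Figure D2:**
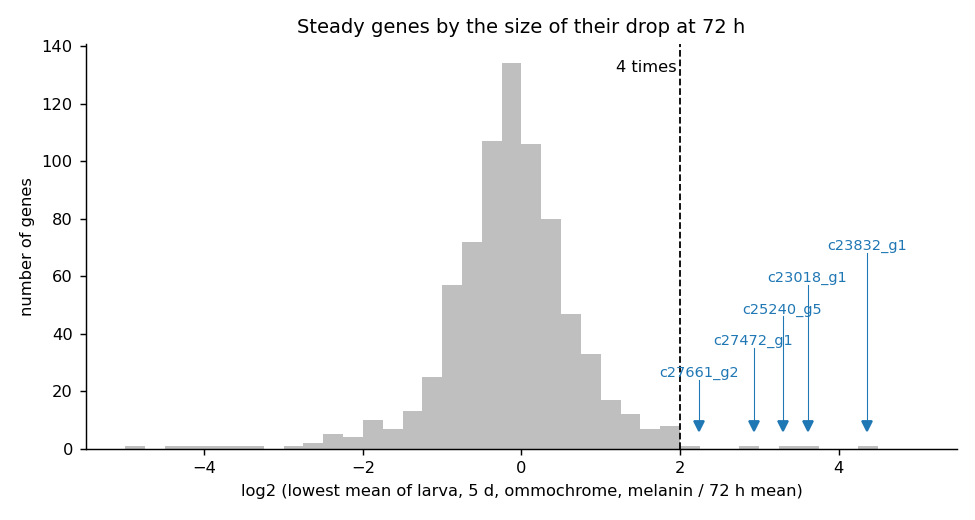
Number of steady genes (of 758) by the log2 ratio of their lowest other stage mean to the 72 h mean, with the threshold of 4 times as a dashed line and the 5 members as triangles. Most genes lie near 0, and the members are spread from a ratio of 4.74 to 20.6 at the upper end of a continuous range.

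Other scalings of the libraries mostly kept the low 72 h values, and seldom the evenness of the other stages. The members were chosen by both on the deposited values, so this is a description with no test. With median-of-ratios factors the lowest other mean was still at least 4 times the 72 h mean in 5 of 5 genes, with ratios of 4.16 to 10.6. With quantile normalization it was so in 4 of 5, and c27661_g2 was at 3.88. With equal FPKM totals the ratios were 5.07 to 16.7, and after removal of the 51 genes that were among the 10 most abundant in a library, followed by equal totals, they were 4.61 to 11.7. Both 72 h libraries stayed below the 8 others for all 5 genes under these 4 scalings. The range around the larval mean was kept by fewer genes. A later stage mean passed 1.5 times the larva in 4 of 5 genes with median-of-ratios factors or quantile normalization, in 3 with equal totals and in 5 with the most abundant genes left out. For c27472_g1, for example, the highest later mean was 2.64 times the larval mean with median-of-ratios factors, against 1.42 times as deposited. Gene c23018_g1 stayed in range with median-of-ratios factors, at up to 1.46 times the larva. The larval factors of that scaling were 1.82 and 1.86, against 0.694 to 1.16 in the other libraries, so it lowered the larval values relative to all others. Its 72 h factors, 0.955 and 0.93, lay inside the range of the libraries that were not larval.

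**Figure D3:**
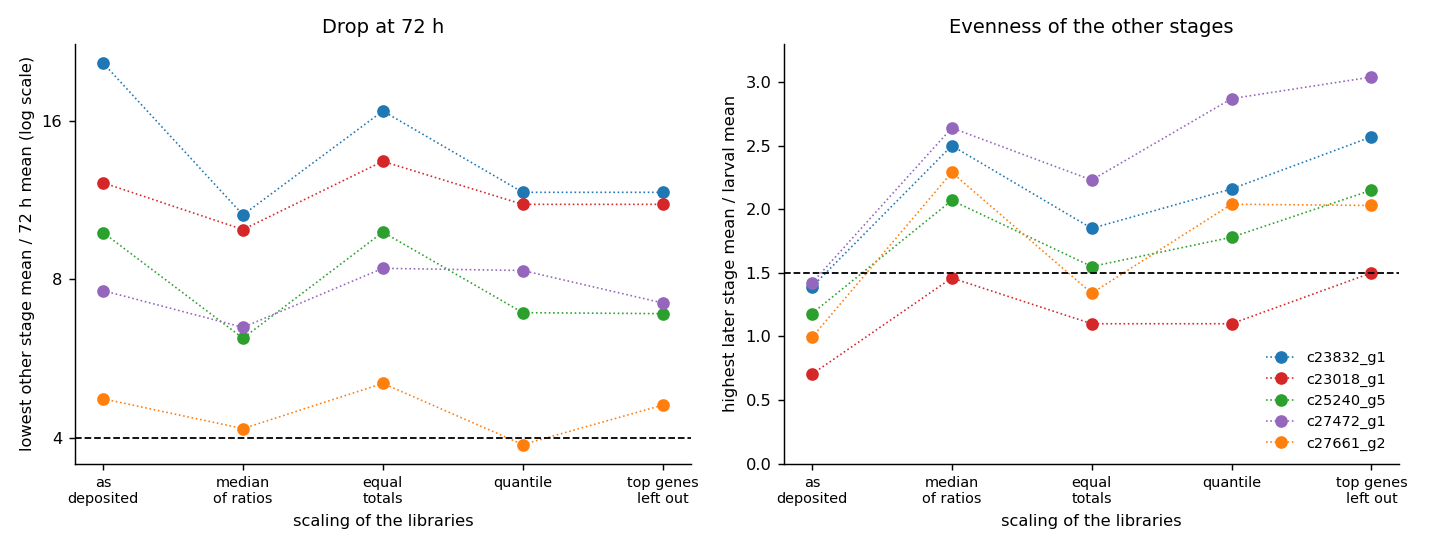
The left panel gives the lowest other stage mean over the 72 h mean (log axis) and the right panel the highest of the 5 d, ommochrome and melanin means over the larval mean, for each of the 5 genes as deposited and under 4 scalings; dashed lines mark the limits of the rule (4 and 1.5), and dotted lines only join the points of a gene. All left points but 1 (c27661_g2, 3.88 with quantile normalization) lie above 4, and most right points lie above 1.5 except as deposited.

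Members assembled with other genes were looked at for reads divided between them. Of the 5 genes, 2 shared their component with another gene, against 34.5% of all genes in the table. Gene c27661_g2 had 2 such partners, c27661_g6 and c27661_g5. Gene c27661_g6 had 61.3 and 81 FPKM in the larva, 3.4 and 17.9 at 72 h, 88 and 47.7 at 5 d, 52.6 and 56.1 at the ommochrome stage and 35.5 and 37.4 at the melanin stage. Its profile was nearly parallel to that of c27661_g2: it was 1.57 to 2.04 times the member in the 12 libraries other than 72 h, and 1.6 and 2.59 times at 72 h. Its own lowest other mean was 3.43 times its 72 h mean, short of the threshold of 4. Gene c27661_g5 did not share the low 72 h level, with 7.93 and 4.48 FPKM at 72 h against 0.89 and 17.2 in the larva. The summed FPKM of component c27661 was at a ratio of 2.94 and so did not meet the rule.

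Gene c25240_g5 had 3 partners, all of them low. The highest of these at 72 h, c25240_g1, averaged 1.65 ± 0.0778 FPKM at 72 h and 5.86 ± 2.48 in the larva (SD, n = 2 each). The sum of component c25240 was at a ratio of 6.87 and met the rule. The other 3 members were alone in their components, and whether their reads were divided between components was not tested.

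**Figure D4:**
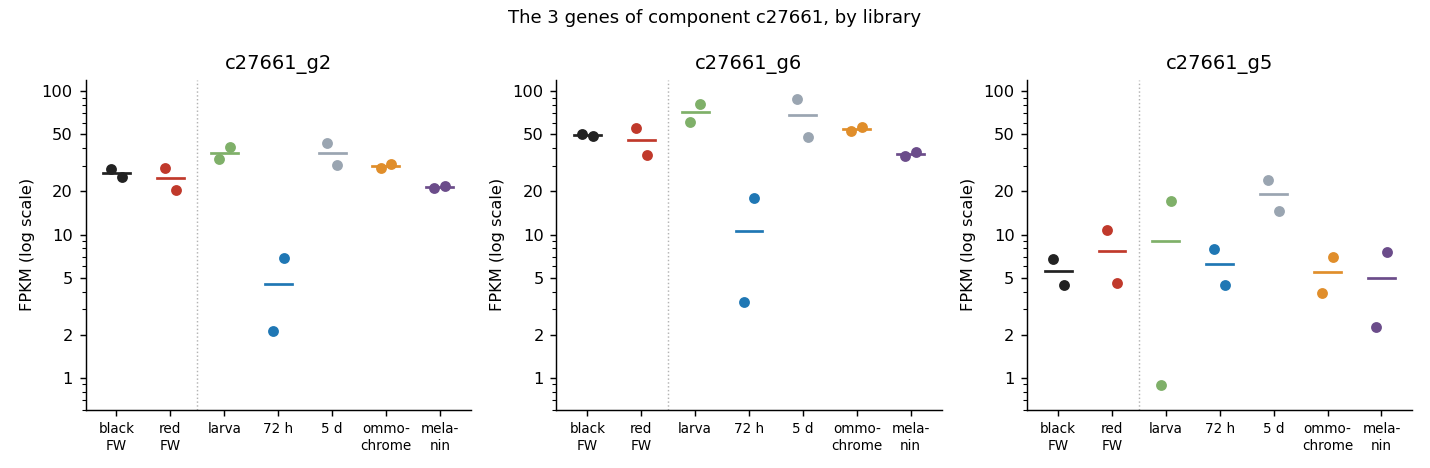
FPKM (log axes, same scale) of the 3 genes of component c27661, with 1 point per library and a bar at each group mean, drawn as in the plot of the members by library. The 72 h libraries of c27661_g2 (2.12 and 6.91) and c27661_g6 (3.4 and 17.9) lie below all their other libraries, while those of c27661_g5 (7.93 and 4.48) lie within its range.

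The forewing levels of the 5 genes were set beside their low 72 h level as a description. The mean over the 4 forewing libraries was at least 4 times the 72 h hind wing mean in 5 of 5 members, a ratio reached by 13.6% of the 10780 genes tested, by 332 of the 3859 genes at 5 FPKM or more (8.6%) and by 21 of the 758 steady genes (2.77%). The 4 forewing libraries all lay above both 72 h libraries in 5 of 5 members and in 24.9% of the genes tested. The 72 h side of this comparison chose the members, so nothing is read from these counts. The forewing mean was 24.3 times the 72 h mean for c23832_g1, 4.92 times for c23018_g1, 21.3 times for c25240_g5, 32.3 times for c27472_g1 and 5.72 times for c27661_g2. With the regions taken apart, c23018_g1 was at 3.69 times the 72 h mean in black and 6.16 times in red regions. With either 72 h library left out, the count of members at 4 times or more was 4 of 5.

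The larval mean was used by the rule, so the forewing level is set against it as a description. It was 0.5 to 1.5 times the larval mean in 2 of 5 members, c23832_g1 and c27661_g2, against 518 of the 758 steady genes (68.3%). Gene c27472_g1 was higher, at 2.57 times the larval mean, and so was c25240_g5, at 1.77 times. Gene c23018_g1 was at 0.254 times. These ratios depended on the scaling. With median-of-ratios factors the forewing mean was 2.54 times the larval mean for c23832_g1, 3.78 times for c25240_g5 and 5.45 times for c27472_g1, while c23018_g1 at 0.534 times and c27661_g2 at 1.5 times were within the range. The same 758 genes then had a median of 1.42 times, against 0.665 times as deposited, and 412 of them (54.4%) were within it. With quantile normalization c27661_g2 alone was within it, at 1.23 times, and c23832_g1 was at 1.84 times.

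The forewing was then compared with the hind wing of the labelled stage, the melanin stage, in a model of all 14 libraries (limma on log2(FPKM + 1), two-sided, Benjamini-Hochberg adjustment over 10780 genes). The rule bounded the melanin side of this comparison but did not use the forewing. The forewing libraries were dissected regions and the hind wing libraries whole wings, so the wing and the part sampled cannot be told apart. A called gene had an adjusted p under 0.05. Of the 5 members, 1 was called, lower in the forewing, against 21.2% of the genes tested called in either direction. Of these 2290 genes 650 were higher in the forewing, and of the 2497 called with median-of-ratios factors 1373 were higher. The median log2 change of the members was 0.25, against -0.205 over the genes tested. Gene c23018_g1 was lower in the forewing regions. It had 88.6 and 82.4 FPKM in black and 168 and 117 in red regions, against 269 and 313 in melanin hind wings, and the groups did not overlap. The forewing mean was 0.392 times the hind wing mean (log2 change -1.40, SE 0.298, limma adjusted p = 0.0111). The call was lost without melanin replicate 1, the library of lowest depth (log2 change -1.51, limma adjusted p = 0.0732).

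Gene c27472_g1 had 2100.4 and 1827 FPKM in black and 2846 and 2193 in red regions, against 1113 and 1218 in melanin hind wings. All 4 forewing libraries lay above both hind wing libraries, at a mean ratio of 1.92, but the gene was not called (log2 change 0.93, SE 0.352, limma adjusted p = 0.0858). It was called with median-of-ratios factors (log2 change 1.24, limma adjusted p = 0.0245) and in a fit to the 6 libraries compared (limma adjusted p = 0.02). The call was also made without 72 h replicate 1 (limma adjusted p = 0.0108) or 72 h replicate 2 (limma adjusted p = 0.011), each of which enters only the shared spread. With equal totals, quantile normalization or the most abundant genes left out, the log2 change was 0.75 to 0.80 and the gene was not called. Among all 13876 genes it ranked 32 to 41 in the forewing libraries, against 67 and 69 in melanin hind wings. Libraries of the forewing and melanin hind wing did not overlap for 2 of 5 members, c23018_g1 and c27472_g1, against 50.0% of the genes tested.

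The other 3 members were not called against the melanin hind wing. Gene c25240_g5 had 107 and 113.5 FPKM in black and 138 and 146 in red regions, against 60.1 and 108 in melanin hind wings (log2 change 0.63, SE 0.28, limma adjusted p = 0.132). The higher melanin library lay just above the lower black one. The change depended on the melanin library kept: it was 0.21 without replicate 1 (limma adjusted p = 0.771) and 1.05 without replicate 2 (limma adjusted p = 0.0389). Gene c23832_g1 had 115 and 161 FPKM in black and 124 and 171 in red regions, against 128 and 209 in melanin hind wings. Its change of -0.22 had a 95% interval from -2.20 to 1.77 log2, wide enough for a change of either sign. Gene c27661_g2 had 28.8 and 25 FPKM in black and 29 and 20.5 in red regions, against 21 and 21.8 in melanin hind wings, with an interval from -0.49 to 0.99 log2.

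Against the ommochrome hind wing, the stage that the protocol gives for the dissection, again 1 of 5 members was called, against 14.7% of the genes tested. Of these 1586 genes 601 were higher in the forewing, and of the 2073 called with median-of-ratios factors 1163 were higher. This comparison shares the forewing libraries with the one above, and again sets dissected regions against whole wings. Gene c23018_g1 was the one called, with 298 and 335 FPKM in ommochrome hind wings and a forewing mean of 0.361 times theirs (log2 change -1.52, SE 0.298, limma adjusted p = 0.00976). Without either ommochrome library the call was lost (log2 change -1.60, limma adjusted p = 0.0644 without replicate 1, and log2 change -1.43, limma adjusted p = 0.0997 without replicate 2). Gene c25240_g5 averaged 126 ± 18.8 FPKM in the forewing (SD, n = 4, black and red libraries pooled) and 67.3 ± 11.6 in ommochrome hind wings (SD, n = 2). Its libraries did not overlap between the groups (log2 change 0.90, SE 0.28, limma adjusted p = 0.058). It was called with median-of-ratios factors (limma adjusted p = 0.0375) and with a pseudocount of 5 (limma adjusted p = 0.0437). A fit to the compared groups called it too (limma adjusted p = 0.00638). The change was smaller and not called with equal totals (log2 change 0.54, limma adjusted p = 0.154), with the most abundant genes left out (0.57, limma adjusted p = 0.14) and with quantile normalization (0.70, limma adjusted p = 0.131). Without either 72 h library (limma adjusted p = 0.0252 each) or either melanin library (limma adjusted p = 0.0349 each) it was called too. Gene c27472_g1 averaged 2242 ± 432 FPKM in the forewing and 1243 ± 13.3 in ommochrome hind wings (log2 change 0.83, limma adjusted p = 0.137). It was called without 72 h replicate 1 or 2 (limma adjusted p = 0.0203 and 0.0207). In a fit to the compared groups it was called as well (limma adjusted p = 0.0192). With median-of-ratios factors the change was larger but not called (log2 change 1.04, limma adjusted p = 0.0524). The change was smaller with quantile normalization (log2 change 0.40, limma adjusted p = 0.418) and with equal totals (0.47, limma adjusted p = 0.305). It was also smaller with the most abundant genes left out (0.50, limma adjusted p = 0.254). Libraries did not overlap for these 3 members of 5, against 53.4% of the genes tested. Genes c23832_g1 and c27661_g2 had changes of 0.20 and -0.22 log2, smaller than their standard errors of 0.891 and 0.332. Over the members the median log2 change was 0.20, and over the genes tested it was -0.146.

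Within the forewing, the black region was compared with the red region, in libraries that the rule did not use. The spread behind the intervals and p-values also comes from the hind wing libraries, which the rule did use. By limma 0 of 5 members were called, against 0.751% of the genes tested, or 81 genes. At an unadjusted p under 0.05 it was also 0 of 5 members, and 447 of the 10780 genes tested. At shares this low, 0 of 5 says little about the members. The smallest unadjusted p of a member by limma was 0.0661, for c23018_g1. That gene averaged 85.5 ± 4.36 FPKM in black and 143 ± 35.7 in red regions (SD, n = 2 each), with a log2 change of -0.71 and a 95% interval from -1.48 to 0.06. The intervals were -1.08 to 0.36 for c25240_g5, -1.26 to 0.56 for c27472_g1, -0.72 to 0.99 for c27661_g2 and -2.40 to 2.19 for c23832_g1. The intervals use each gene's spread over all 7 groups, and the widest, that of c23832_g1, includes its 21.8-fold split at 5 d, while its libraries were 1.4-fold apart in black and 1.38-fold in red regions. Both black libraries were below both red libraries in 3 of 5 members (c23018_g1, c25240_g5 and c27472_g1) and in 35.2% of the genes tested. The median log2 change was -0.35 over the members and -0.155 over the genes tested. The regions differ both in colour and in their place on the wing, which cannot be told apart here.

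**Figure D5:**
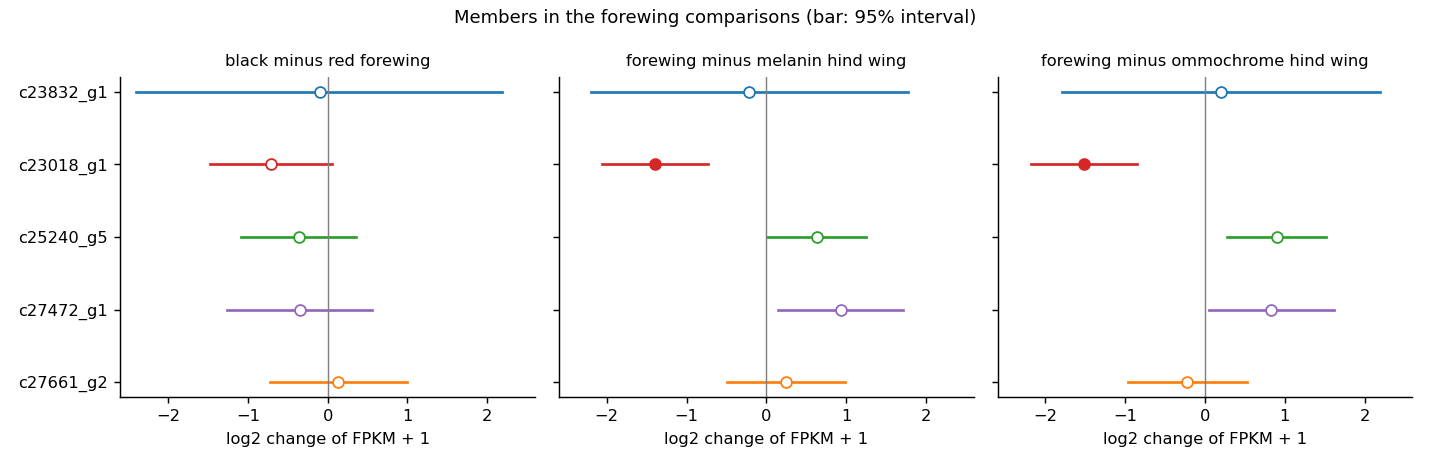
The log2 change of FPKM + 1 of the 5 genes with its 95% interval (bar) for black minus red forewing, forewing minus melanin hind wing and forewing minus ommochrome hind wing; filled points were called at an adjusted p under 0.05. Gene c23018_g1 is filled in both comparisons of the wings, at -1.40 and -1.52, and no member is filled between the regions.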

How the data were processed

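Libraries of polyadenylated RNA were sequenced as 150 bp paired-end reads, per the labels' protocols, and the submitters' processing notes name Bowtie, with no version or role. The series title names a de novo transcriptome. For the assembler, the quantifier, filters and further scaling, the sources used here give nothing. The authors deposited FPKM values, 1 column per library with 2 decimals. FPKM are relative values, so differences between stages can depend on the other genes of a library, and other scalings were tried.

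The members and all lists and tests were chosen with earlier results of these data known. Members were taken by the rule on the FPKM as deposited. A minimum of 1 FPKM in 2 or more libraries left 10780 genes, tested as log2(FPKM + 1), a scale that understates the change of low genes. A limma 3.58.1 model (R 4.3.3) with 7 group means, no covariate and a spread prior that followed the mean had 7 residual and 2.88 prior degrees of freedom. All groups share this spread, although 72 h is the most variable. The model was tested on simulated data. P-values were two-sided and adjusted by Benjamini-Hochberg within each comparison.

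Read totals are unknown. Relative depth was estimated from the steps of FPKM values between 0.08 and 2 (68 of 91 pairs of libraries within 0.1 log2 of the estimate). With no gene names, genes were named by rule: the 2 largest and 2 smallest ratios to 72 h, the 2 nearest outside, the 2 highest in the larva, the 2 highest and lowest in the forewing, up to 2 called without overlap in each direction per comparison, and the 2 component partners with the highest 72 h mean. Gene c25240_g1 was added after its values were seen. Alternatives were other scalings, thresholds, pseudocounts, filters, fits to the compared groups, a replicate block and each library left out. Tables used Python 3.11.15, NumPy 2.4.6 and pandas 2.3.3, and figures matplotlib 3.10.9.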

Additional observations from a re-analysis of the deposited data

How the results depend on the processing

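The rule gave 5 genes, and 9 with equal FPKM totals (2 of the 5 among them), 8 with the most abundant genes left out (0 of the 5), 7 with median-of-ratios factors (1 of the 5), 6 with quantile normalization (1 of the 5), 16 at 3 times, 12 at a minimum of 1 FPKM, 1 with a narrower range around the larva and 72 with no range. With a hind wing library left out it gave 4 to 22 genes: 22 without 72 h replicate 1, 15 without 72 h replicate 2 and 11 without 5 d replicate 2. Gene c23832_g1 met the rule in 6 of these 10 fits, and each of the other 4 members in 9. The number of members at 0.5 to 1.5 times the larva in the forewing was 1 with quantile normalization.

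By limma, members called against the melanin hind wing were 2 with median-of-ratios factors and in a fit to the compared groups, and 0 to 2 with a library left out. Against the ommochrome hind wing they were 2 with a pseudocount of 5 or median-of-ratios factors, 3 in a fit to the compared groups and 0 to 3 with a library left out. The cause was not tested. Over all genes the calls ranged from 554 without melanin replicate 1 to 3050 without 72 h replicate 1 against the melanin hind wing (2290 as reported), from 373 without ommochrome replicate 2 to 3946 in a blocked fit to the compared groups against the ommochrome hind wing (1586), and from 18 without red replicate 1 to 377 in such a fit between the regions (81). Signs turned for changes near 0. For c23832_g1, black minus red was 0.11 with median-of-ratios factors, 0.02 with equal totals, 0.13 with quantile normalization and 0.06 with the most abundant genes left out. Its change against the melanin hind wing was 0.10 with median-of-ratios factors, and against the ommochrome hind wing -0.16, -0.05 and -0.13 with equal totals, quantile normalization and the most abundant genes left out. With a library left out, black minus red ranged from -0.35 to 0.14 for c23832_g1 and from -0.11 to 0.37 for c27661_g2, and the melanin comparison from -0.57 to 0.14 for c23832_g1.

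The labels do not say that a replicate number pairs libraries. Same-numbered deviations correlated above 0.1 in 1 of 21 pairs of groups (black and red, 0.431). The forewing SDs with n = 4 pool both regions. The SEs, intervals and p-values of the fits without a block take all libraries as independent. A replicate block left 1, 1 and 0 members called against the melanin hind wing, the ommochrome hind wing and between the regions in the fit to all libraries, and 2, 3 and 0 in fits to the compared groups. The block is the same shift in every group of a fit. In fits that include hind wings it therefore cannot model a pairing of the forewing alone, and nothing is read from it about such a pairing. In the 4 forewing libraries the block took the calls over all genes to 377, against 87 without it.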

Other observations

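The low 72 h level without the even level around it was commoner. Of the 3859 genes at 5 FPKM or more in the 8 other hind wing libraries, 72 had a lowest other mean at least 4 times the 72 h mean, and 67 of these lay outside the range around the larval mean. Among the 67, the melanin mean was over 1.5 times the larval mean in 39 genes and under 0.5 times in 13. The ommochrome mean was over in 30 and under in 15, and the 5 d mean was over in 18 and under in 24. These counts rest on the values as deposited and were not tested.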
